A study of Mus musculus with 10 samples.

Results

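The genes described here are 5 targets that glucocorticoids induce in many tissues, Fkbp5, Tsc22d3, Zbtb16, Klf9 and Usp2, together with Nr3c1, the gene of the glucocorticoid receptor itself. They were chosen by name, apart from the sodium channel genes that corticosteroids also regulate, and where several probe sets measured a gene, the one with the highest mean was used. All 6 were found, among 18193 genes with a probe set of a single gene symbol, and all 6 passed the level filter that left 11486 genes for testing. The animals were 10 FVB/N mice, 20 weeks old, and total RNA of their renal cortex was put on 1 Affymetrix array each. All of them had undergone ablation of part of a kidney followed by uninephrectomy. Of these mice, 5 had then received aliskiren at 50 mg/kg per day for 6 weeks, and the other 5 had received losartan at 500 mg/l for 6 weeks. Aliskiren inhibits renin, and losartan blocks the receptor through which angiotensin II acts. Dosing in both groups began 6 weeks after ablation, which was 4 weeks after uninephrectomy. Mice without either drug, or with intact kidneys, were not analysed here, so no value below speaks to what a drug or the ablation does by itself.

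Glucocorticoids are adrenal steroids that cross the cell membrane and bind a receptor held ready in the cytoplasm by heat shock proteins and their partners. The bound receptor moves to the nucleus and switches genes on or off, and its own partner FKBP51, the product of Fkbp5, is among the induced proteins and makes the receptor less sensitive to hormone. Blood corticosterone in mice follows the time of day, and several targets also answer to the circadian clock of the tissue. In the kidney, glucocorticoids act on glucose production, transport and inflammation along the tubule.

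Values are RMA log2 expression values as the authors deposited them, so a difference of 1 is a doubling. RMA brings all arrays to a common distribution, and a difference in total RNA between mice is no longer visible. The array medians lay between 5.53 and 5.57 and no pair of the 45 pairs of arrays held identical values. The samples carried the markers of cortex: the proximal tubule list had a mean of 12.3 to 12.5 in aliskiren mice and 12.1 to 12.7 in losartan mice. Markers of the adrenal gland, which makes the hormone and lies against the kidney, had list means of 4.55 to 4.82 with aliskiren and 4.63 to 4.78 with losartan. The gene of the enzyme that completes corticosterone, Cyp11b1, lay below the level filter. Of the 9 genes of the adrenal list, however, 3 passed the filter. The brightest was Cyp21a1, with means of 6.99 with aliskiren and 6.88 with losartan. Perirenal fat markers were high in 3 mice, with list means of 8.18 in aliskiren mouse 3, 6.30 in aliskiren mouse 2 and 10.55 in losartan mouse 3, and of 4.67 to 4.91 in the others. Adipoq, the adiponectin gene, stood at 9.90, 7.35 and 12.96 in these 3 mice. Losartan mouse 3 also had the highest mean of tubular injury markers, 10.1, where the other losartan mice had 6.96 to 8.33 and the aliskiren mice 7.14 to 8.73. Clock genes set aliskiren mouse 1 apart, as described further on. In whole cortex, fewer cells of a type and less RNA per cell cannot be told apart.

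Promoter sequence is shown for 2 of the genes, because these windows held the letters of a hormone response half-site or of a clock E-box. RefSeq's GRCm38.p6 promoter table held 6 windows for 4 of the 6 genes, each 300 bases long and lying mostly before a start site. Capitals mark the matches.
Fkbp5, chr17:28486100-28486399, minus strand: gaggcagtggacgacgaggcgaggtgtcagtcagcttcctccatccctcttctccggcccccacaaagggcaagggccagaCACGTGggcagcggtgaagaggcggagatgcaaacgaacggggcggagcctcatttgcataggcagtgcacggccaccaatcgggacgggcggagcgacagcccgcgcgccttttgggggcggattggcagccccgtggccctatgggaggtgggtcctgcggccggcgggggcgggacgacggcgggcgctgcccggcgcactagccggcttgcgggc
Tsc22d3, chrX:140600473-140600772, minus strand: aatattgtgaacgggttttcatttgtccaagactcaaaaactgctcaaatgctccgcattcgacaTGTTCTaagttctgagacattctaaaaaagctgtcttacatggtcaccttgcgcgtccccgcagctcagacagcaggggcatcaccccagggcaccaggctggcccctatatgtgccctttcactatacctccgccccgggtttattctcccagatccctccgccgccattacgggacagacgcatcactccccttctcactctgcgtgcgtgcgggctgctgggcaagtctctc

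The E-box CACGTG, bound by clock factors among others, begins at position -169 relative to the Fkbp5 start site. It was found in 1 of the 6 windows and in 7.15% of 32851 windows of the same length. The half-site AGAACA, searched on both strands, appeared as TGTTCT in 1 of 3 Tsc22d3 windows, at position -185, and in 18.97% of all windows. The full palindromic glucocorticoid response element, which contains the half-site on both strands, was in 0 of the 6 windows and in 3 of all windows. The D-box TTATGTAA, through which Dbp and its relatives act, was in 0 of the 6 windows and in 0.938% of all windows. A match is a description of letters only, and no match says only that the letters are not in these windows.

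None of the 6 genes differed between the drugs beyond the spread between mice. Tsc22d3, Fkbp5 and Usp2 had lower means with aliskiren, by 0.29 to 0.51 on the log2 scale, Klf9 and Nr3c1 had higher means by 0.11 and 0.08, and Zbtb16 had nearly equal means. By limma with Benjamini-Hochberg adjustment over all 11486 genes, the adjusted p ran between 0.945 and 0.996 for the 6 genes. At an adjusted p under 0.05, 0 of the 6 genes were called, and over all genes 0% were higher and 0% were lower with aliskiren. At an unadjusted p under 0.05, 0 of the 6 were reached, beside 4.72% of all genes by limma and 573 genes by an ordinary t statistic, of which 0 passed adjustment. The groups overlapped for each of the 6 genes, while 0.914% of all genes had groups that did not overlap.

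**Figure D1:**
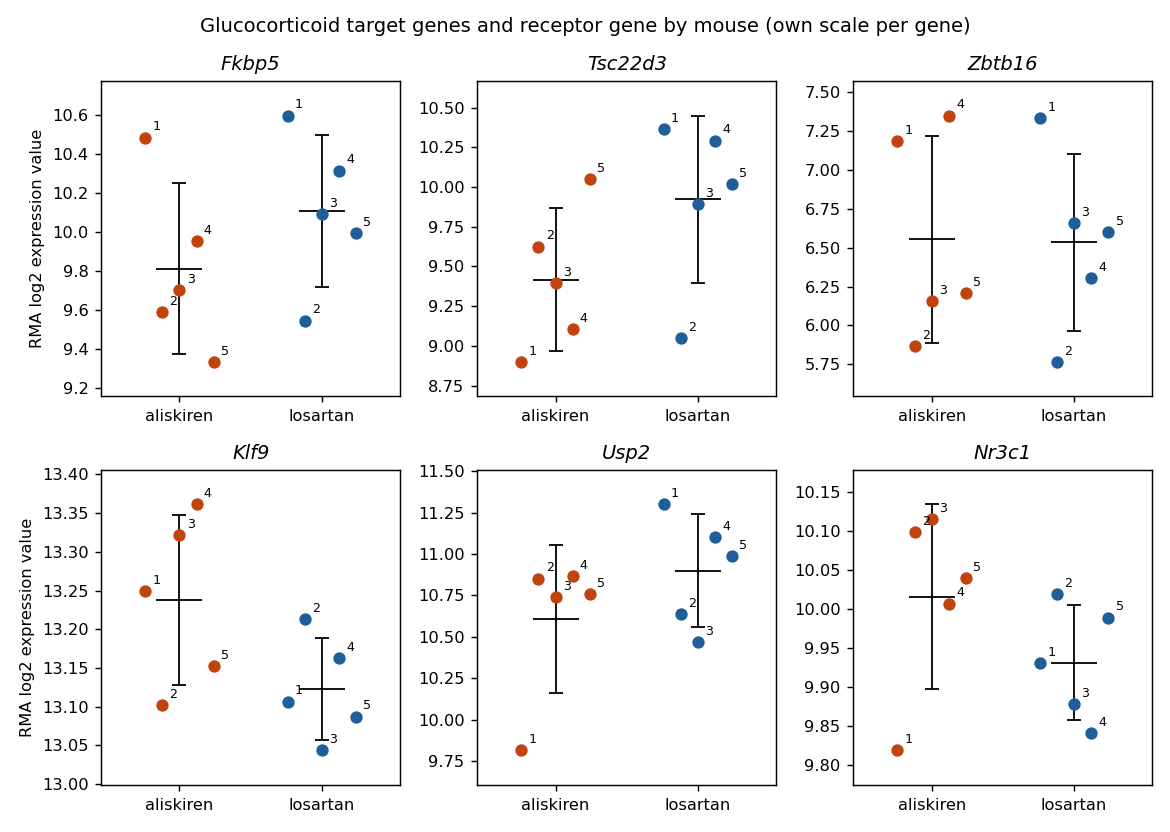
Each panel plots 1 gene on its own scale, with the RMA log2 value of each mouse (point, with its mouse number) and the mean and SD of the group (black), aliskiren left of losartan. The groups overlap in every panel, and aliskiren mouse 1 is the lowest of all mice for Tsc22d3, Usp2 and Nr3c1 but among the 3 highest for Fkbp5 and Zbtb16.

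Tsc22d3 had the lowest mean with aliskiren relative to losartan. It encodes GILZ, a leucine zipper protein through which glucocorticoids restrain inflammatory signalling, and in the kidney it also takes part in sodium transport. The aliskiren mice had log2 values of 8.90, 9.63, 9.39, 9.10 and 10.05, against 10.37, 9.05, 9.89, 10.29 and 10.02 in the losartan mice. Losartan mouse 2 lay among the lower aliskiren mice, and aliskiren mouse 5 among the losartan mice. The means were 9.41 ± 0.45 with aliskiren and 9.92 ± 0.53 with losartan (SD, n = 5 each), a difference of -0.51 (SE 0.27, limma adjusted p = 0.945). As a ratio of aliskiren over losartan this is 0.703, with a 95% interval of 0.461 to 1.07. Without losartan mouse 2 the difference was -0.73 and still did not pass.

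Fkbp5 encodes the immunophilin that joins the receptor complex and slows its activation, so its RNA is widely used as a readout of receptor activity. Values with aliskiren were 10.49, 9.59, 9.70, 9.96 and 9.33, and values with losartan were 10.60, 9.54, 10.09, 10.32 and 9.99. Mouse 1 of either group stood highest, and aliskiren mouse 5 stood lowest. The means were 9.81 ± 0.44 with aliskiren and 10.11 ± 0.39 with losartan (SD, n = 5 each), a difference of -0.30 (SE 0.23, 95% interval -0.82 to 0.22, limma adjusted p = 0.949). It was -0.47 without aliskiren mouse 1 and -0.17 without losartan mouse 1, so single mice moved it by more than 1.5 times.

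Zbtb16 encodes PLZF, a zinc finger repressor that glucocorticoids induce strongly in several tissues. It had 7.19, 5.87, 6.16, 7.35 and 6.21 in aliskiren mice, against 7.33, 5.77, 6.66, 6.30 and 6.60 in losartan mice. Among them, 3 mice lay above 7, aliskiren mice 1 and 4 and losartan mouse 1, while mouse 2 of either group was the lowest. The means were 6.55 ± 0.67 with aliskiren and 6.53 ± 0.57 with losartan (SD, n = 5 each), and the difference of 0.02 (SE 0.35) left a 95% interval of 0.595 to 1.73 for the ratio. The sign of that difference turned when any of 4 single mice was left out, with values from -0.18 to 0.22.

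Klf9 encodes a Krüppel-like zinc finger factor that responds to glucocorticoids and thyroid hormone and feeds into the clock. Its values were 13.25, 13.10, 13.32, 13.36 and 13.15 with aliskiren and 13.11, 13.21, 13.04, 13.16 and 13.09 with losartan. Aliskiren mice 1, 3 and 4 lay above every losartan mouse, and aliskiren mice 2 and 5 lay among them. The means were 13.24 ± 0.11 with aliskiren and 13.12 ± 0.07 with losartan (SD, n = 5 each), a difference of 0.11 (SE 0.06, limma adjusted p = 0.945). The 95% interval of the ratio, 0.981 to 1.2, stayed within 1.5-fold in both directions.

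Usp2 encodes a ubiquitin-specific protease whose RNA follows both glucocorticoids and the clock. Aliskiren mice had 9.81, 10.85, 10.74, 10.87 and 10.76, and losartan mice had 11.30, 10.64, 10.47, 11.10 and 10.99. Aliskiren mouse 1 stood far below the other 9 mice, and losartan mice 1, 4 and 5 stood above every aliskiren mouse. The means were 10.61 ± 0.45 with aliskiren and 10.90 ± 0.34 with losartan (SD, n = 5 each), a difference of -0.29 (SE 0.22, limma adjusted p = 0.948). Without aliskiren mouse 1 it was -0.10.

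Nr3c1, the receptor gene, varied little. Its values with aliskiren were 9.82, 10.10, 10.12, 10.01 and 10.04, and with losartan they were 9.93, 10.02, 9.88, 9.84 and 9.99. Aliskiren mice 2, 3 and 5 lay above every losartan mouse, and aliskiren mouse 1 lay below them all. The means were 10.02 ± 0.12 with aliskiren and 9.93 ± 0.07 with losartan (SD, n = 5 each), a difference of 0.08 (SE 0.07, limma adjusted p = 0.949). The ratio of aliskiren over losartan was 1.06 with a 95% interval of 0.955 to 1.18, again within 1.5-fold, and the difference was 0.13 without aliskiren mouse 1. Among all genes tested, 87.7% had intervals this narrow, so the bounds for Klf9 and Nr3c1 do not set them apart. The intervals of Tsc22d3, Fkbp5, Usp2 and Zbtb16 each reached beyond 1.5-fold on at least 1 side.

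The 6 genes differed widely in how much mice of the same drug varied. The SD within drug groups was 0.62 for Zbtb16, 0.49 for Tsc22d3, 0.42 for Fkbp5 and 0.40 for Usp2, where the median gene had 0.14. These SDs stood at percentiles 96.6, 94.2, 92.1 and 91.4 of all genes tested. Nr3c1 and Klf9, by contrast, had SDs of 0.099 and 0.091, at percentiles 23.4 and 17.97. The share of the variance that lay between the 2 group means was 33.5% for Klf9, 25.2% for Tsc22d3 and 18.5% for Nr3c1. It was 14.7% for Usp2, 13.7% for Fkbp5 and 0.032% for Zbtb16, beside a median of 6.36% over all genes. As none of the 6 genes passed the test, these shares are descriptions and are not shown to come from the drugs.

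The genes were represented by 25 probe sets in all, and the brighter ones gave like pictures. For Tsc22d3, the 3 probe sets above the level filter differed by -0.51, -0.56 and -0.25, and the dimmer pair of them followed the brightest over the 10 mice at r = 0.97 and 0.91. Usp2 had 2 probe sets with differences of -0.29 and -0.22, and Fkbp5 had 2 above the filter with -0.30 and -0.21. All 7 probe sets of Klf9 had higher means with aliskiren, by 0.05 to 0.34, and the 0.34 came from the fifth brightest. The dimmest pair of them, with means of 6.29 and 4.00, followed the brightest at r = 0.02 and 0.10 only. The rest followed it at r = 0.75 to 0.85. For Nr3c1 the 3 probe sets above the filter differed by 0.08, 0.01 and 0.24. The Zbtb16 probe sets did not go together: the second in brightness followed the first at r = 0.11, while the dimmest, with a mean of 4.99, followed it at r = 0.98 and had a difference of -0.13. These r values compare probe sets of 1 gene on the same arrays and are given as descriptions.

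**Figure D2:**
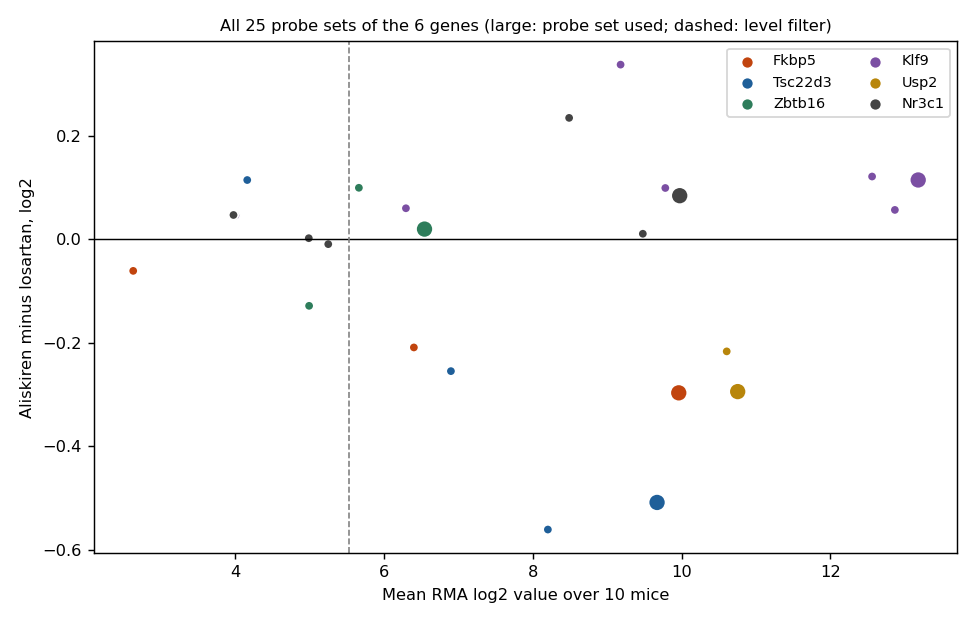
The plot shows all 25 probe sets of the 6 genes, with the mean RMA log2 value over 10 mice on the horizontal axis and the difference, aliskiren minus losartan in log2, on the vertical axis. Large points mark the probe set used for each gene, the dashed line is the level filter at 5.53, and the points right of it keep their gene's sign.

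Other glucocorticoid-induced genes also gave no call. Of 20 tested genes of this list, 0 passed the limma threshold in either direction, 13 had a lower and 7 a higher mean with aliskiren, and the median difference was -0.08, beside -0.01 over all genes, of which 53.8% were lower. The members of smallest p were Mt1, a metallothionein gene, at -0.33 (SE 0.17), the clock gene Per1 at -0.49 (SE 0.27) and the kinase gene Sgk1 at -0.62 (SE 0.39). Per1 had 7.02, 7.49, 7.73, 7.75 and 7.57 with aliskiren and 8.34, 7.77, 8.86, 7.70 and 7.34 with losartan. Sgk1, which promotes sodium uptake, had 10.27, 10.88, 10.27, 10.03 and 11.49 with aliskiren and 11.81, 10.20, 12.17, 10.79 and 11.09 with losartan. Losartan mouse 3, the mouse with the highest fat and injury markers, was the highest of all for Per1, Sgk1 and Mt1. Among the 6 genes it was the lowest of all mice for Klf9 and the lowest losartan mouse for Usp2, and held no extreme place for Fkbp5, Tsc22d3, Zbtb16 or Nr3c1. The part of the fat and injury markers of that mouse in these values was not tested. The list's median difference was 0.03 when losartan mouse 1 was left out, -0.14 when losartan mouse 2 was, and -0.0027 without losartan mouse 3 and aliskiren mouse 1 together. At the other end of the list, Fam107a had a mean higher by 0.52 with aliskiren, and a 95% interval that included 0.

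**Figure D3:**
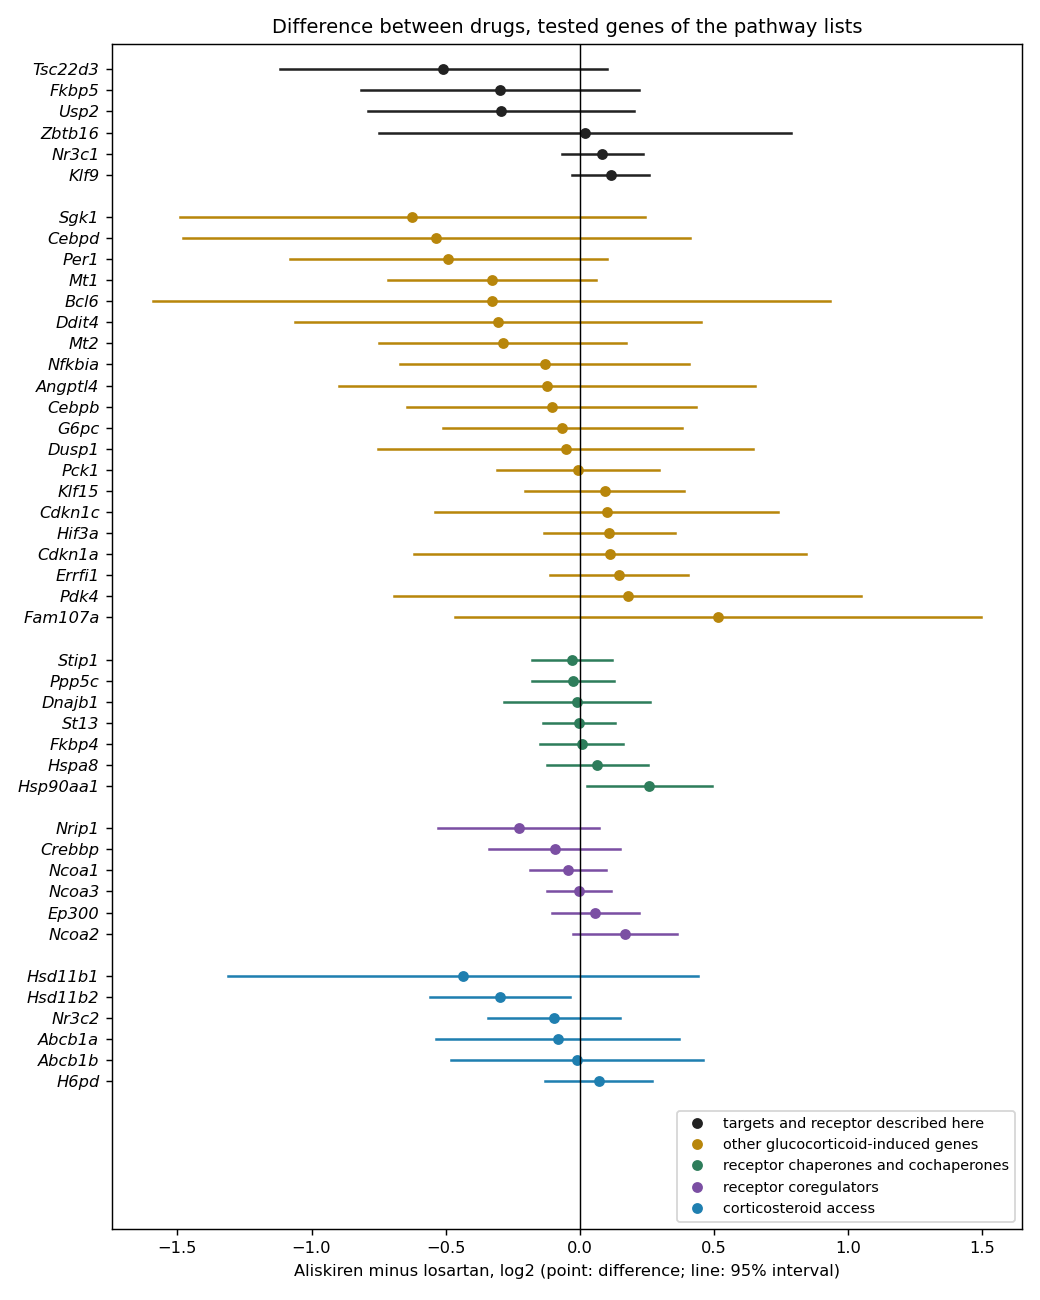
Points give the difference in log2, aliskiren minus losartan, and lines its 95% interval from limma, for the tested genes of each pathway list (colours). Nearly all lines cross 0; those of Hsp90aa1 and Hsd11b2 do not, and neither gene passed adjustment over all genes.

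Proteins that hold and assist the receptor gave no call either. Of 7 tested chaperone and cochaperone genes 0 passed, the median difference was -0.0028 (-0.03 to 0.03 with 1 mouse left out), and the members of smallest p after Hsp90aa1 were Hspa8 at 0.07 and Stip1 at -0.03. Hsp90aa1, the inducible form of the chaperone that keeps the receptor able to bind hormone, had 13.09, 12.52, 12.63, 12.81 and 12.80 with aliskiren and 12.30, 12.62, 12.50, 12.58 and 12.55 with losartan. The difference was 0.26 (SE 0.11) with an unadjusted p of 0.0326 and a limma adjusted p of 0.945. Fkbp4, the relative of Fkbp5 that favours receptor transport, averaged 9.51 ± 0.12 with aliskiren and 9.51 ± 0.08 with losartan (SD, n = 5 each). Of 6 coregulator genes 0 passed, with a median difference of -0.02 that was 0.03 with the mean of all probe sets of each gene, and Ncoa2, a coactivator of the receptor, stood at 0.17 (SE 0.09), Nrip1, a corepressor, at -0.23 (SE 0.14), and Crebbp at -0.09 (SE 0.11).

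Genes that set the access of corticosteroids to their receptors included the smallest p of the pathway lists. Hsd11b2 encodes the enzyme that inactivates corticosterone in the distal nephron. It had 9.43, 9.36, 9.35, 9.65 and 9.50 with aliskiren and 9.64, 9.88, 10.13, 9.64 and 9.49 with losartan, a difference of -0.30 (SE 0.12, limma adjusted p = 0.945, unadjusted p = 0.0296). The highest of these values, 10.13, was that of losartan mouse 3, the mouse with the highest fat and injury markers. Hsd11b1, whose enzyme regenerates corticosterone, had a difference of -0.44 (SE 0.39), with losartan mouse 3 at 11.67 and the other losartan mice between 9.37 and 9.96. The mineralocorticoid receptor gene Nr3c2 differed by -0.09 (SE 0.11). Of the 6 tested genes of this list, 0 passed and 5 had lower means with aliskiren, with a median difference of -0.09 that was -0.01 without losartan mouse 3, -0.23 without losartan mouse 4 and 0.02 without losartan mouse 3 and aliskiren mouse 1 together.

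The ranking of the mice differed from gene to gene. Over the 10 mice, 15 pairs of the 6 genes were compared, and with Benjamini-Hochberg adjustment over the 15 pairs 0 passed, while 4 had an unadjusted permutation p under 0.05. Between Fkbp5 and Zbtb16, Pearson's r was 0.75 (permutation p = 0.01645, adjusted p = 0.0822) and Spearman's rho was 0.71 (p = 0.0274, adjusted p = 0.137). Without the 2 mice farthest from the median of Fkbp5, aliskiren mouse 5 and losartan mouse 1, r was 0.69 (exact permutation p = 0.062). The highest Zbtb16 value belonged to aliskiren mouse 4, which was in the middle for Fkbp5. Between Fkbp5 and Nr3c1 the values were r = -0.80 (permutation p = 0.00745, adjusted p = 0.0822), rho = -0.82 (p = 0.00587, adjusted p = 0.088), and r = -0.91 without the same mice (exact permutation p = 0.003125). With the mean of all probe sets of each gene this r was -0.51 (permutation p = 0.131, adjusted p = 0.636), and the Nr3c1 values spanned only 9.82 to 10.12.

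Between Tsc22d3 and Usp2 the values were r = 0.69 (permutation p = 0.0149, adjusted p = 0.0822) and rho = 0.73 (p = 0.0209, adjusted p = 0.137). Without the 2 mice farthest from the median of Tsc22d3, aliskiren mouse 1 and losartan mouse 2, r was 0.48 (exact permutation p = 0.226). Leaving out 1 mouse gave r = 0.56 without aliskiren mouse 1 (exact permutation p = 0.115) and r = 0.72 without losartan mouse 2 (exact permutation p = 0.0206). Between Tsc22d3 and Klf9 the values were r = -0.69 (permutation p = 0.0296, adjusted p = 0.111) and rho = -0.55 (p = 0.103, adjusted p = 0.308), and r was -0.73 without the same mice (exact permutation p = 0.0434). It was -0.38 with the mean of all probe sets (permutation p = 0.292) and -0.54 with array medians set equal (permutation p = 0.104). With quantile normalization it was -0.79 (permutation p = 0.0105, adjusted p = 0.0749). Between Fkbp5 and Tsc22d3, the targets most often read as signs of receptor activity, r was 0.20 (permutation p = 0.562, adjusted p = 0.906) and rho 0.25 (p = 0.491, adjusted p = 0.878), and r was 0.17 without aliskiren mouse 5 and losartan mouse 1 (exact permutation p = 0.673). Aliskiren mouse 1 held the second highest Fkbp5 value and the lowest Tsc22d3 value of all 10 mice. Within the drugs, r of Fkbp5 with Tsc22d3 was -0.94 in the aliskiren mice and 0.94 in the losartan mice (n = 5 each). The r of 0.20 thus joins opposite slopes, and the difference between these slopes was not tested. With values centred within each drug, r was 0.81 for Fkbp5 with Zbtb16, -0.76 for Fkbp5 with Nr3c1, 0.63 for Tsc22d3 with Usp2 and -0.57 for Tsc22d3 with Klf9, and again 0 pairs passed adjustment.

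**Figure D4:**
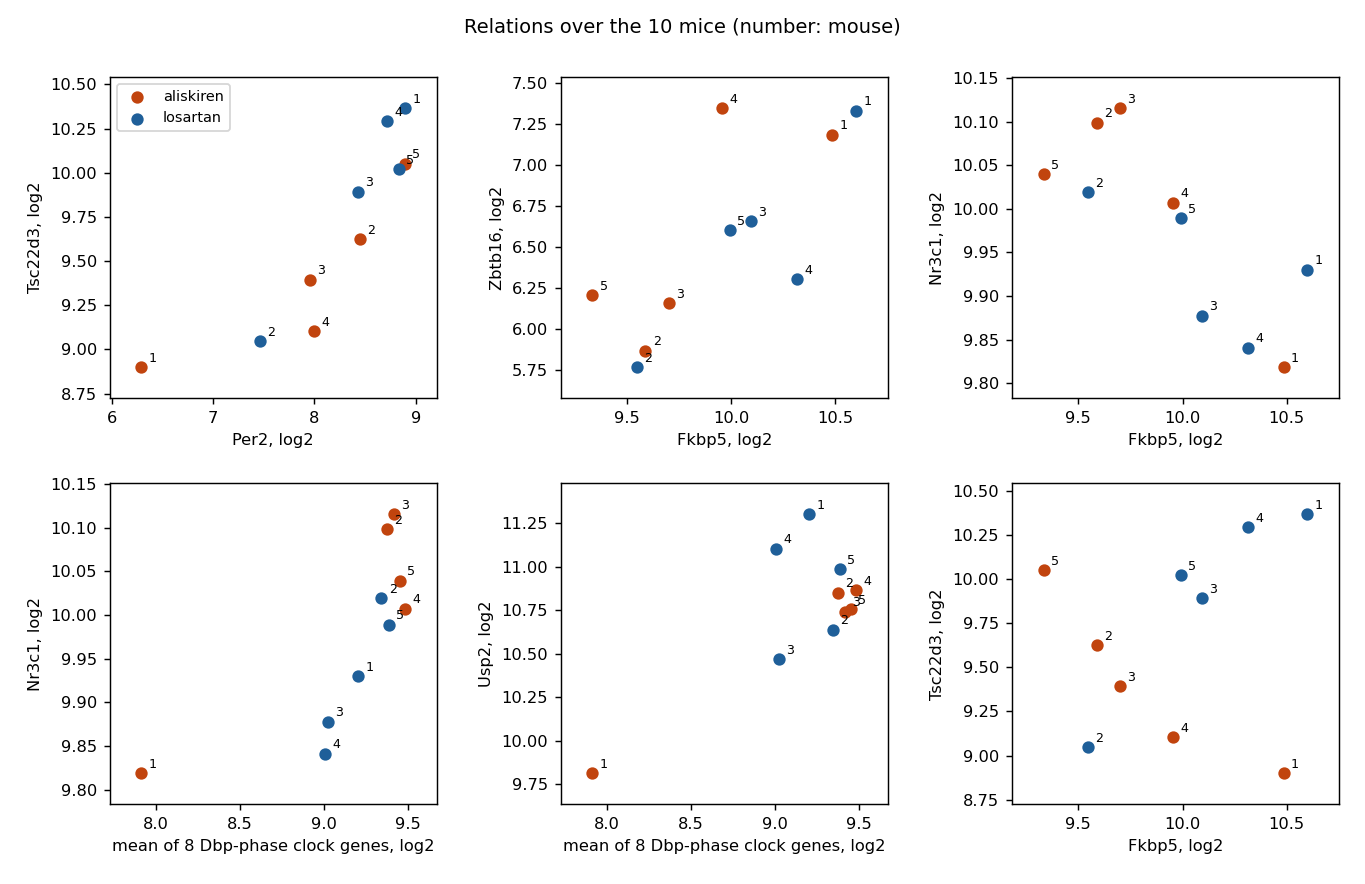
Each panel plots 1 relation over the 10 mice in RMA log2 values, with aliskiren mice in orange-red, losartan mice in blue and the mouse number beside each point. Tsc22d3 climbs with Per2 across both groups, the panels of Fkbp5 with Zbtb16 and with Nr3c1 slope up and down at r = 0.75 and -0.80, and aliskiren mouse 1 stands apart in the panels with the clock gene mean.

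Clock genes also differed between mice. Dbp, a clock output gene, had 7.99, 11.49, 11.61, 11.62 and 11.51 with aliskiren and 10.68, 11.51, 10.99, 10.41 and 11.14 with losartan. Arntl, which encodes the clock activator BMAL1 and peaks in the opposite phase, had 9.03 in aliskiren mouse 1 and between 5.79 and 6.53 in the other 9 mice. Aliskiren mouse 1 had the lowest Dbp and the highest Arntl value of all mice, and it is the mouse with the lowest Usp2, Tsc22d3 and Nr3c1 values. The labels used here give no time of day for the sampling, and the part of the clock in the values of the 6 genes was not tested beyond the relations given here.

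Of 18 relations between the 6 genes and the means of the tubular injury, perirenal fat and Dbp-phase clock lists, 1 passed adjustment over the 18. Nr3c1 was higher in mice with a higher clock mean, with r = 0.75 (permutation p = 0.00045, adjusted p = 0.0081) and rho = 0.77 (p = 0.0125, adjusted p = 0.112). Without aliskiren mouse 1 and losartan mouse 4, the mice farthest from the median of the clock mean, r was 0.78 (exact permutation p = 0.0199). Centred within each drug, r was 0.87 (adjusted p = 0.0445). Leaving out only aliskiren mouse 1 gave r = 0.86, which no longer passed (exact permutation, adjusted p = 0.0603), and with the mean of all Nr3c1 probe sets it was 0.63 and did not pass (adjusted p = 0.276). Usp2 had r = 0.74 with the clock mean (permutation p = 0.0607, adjusted p = 0.311) but rho = 0.20 (p = 0.581, adjusted p = 0.913), and r = 0.18 without aliskiren mouse 1 and losartan mouse 4. Of these, aliskiren mouse 1 was low in both measures, while losartan mouse 4 had a low clock mean and a high Usp2 value. The r of 0.74 with the clock mean thus rested on aliskiren mouse 1, and relations with single clock genes are given below. Tubular injury markers, which ranged widely between mice, gave r from -0.62 with Usp2, where rho was -0.78 (p = 0.01078, adjusted p = 0.112), to 0.07 with Fkbp5, and none of the 6 genes passed with them (lowest adjusted p = 0.311 for r and 0.112 for rho). For perirenal fat markers r lay between -0.23 and 0.07, and the lowest adjusted p was 0.964 for r and 0.744 for rho.

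A family of 78 relations, each of the 6 genes with each of 13 single clock genes, was computed after the other values had been seen, and 3 of these passed adjustment over the 78. Of the 13 clock genes, Cry1 and Npas2 lay below the level filter. The mean of all probe sets of each gene was not tried for this family. Tsc22d3 followed Per2, a gene of the clock's repressing arm, with r = 0.87 (permutation p = 4e-05, adjusted p = 0.00312) and rho = 0.94 (p = 0.00016, adjusted p = 0.0125). Per2 had 6.29, 8.45, 7.95, 7.99 and 8.89 with aliskiren and 8.89, 7.46, 8.43, 8.71 and 8.83 with losartan. Losartan mouse 2, the one losartan mouse with low Tsc22d3, was also the one with low Per2, and aliskiren mouse 5, the one aliskiren mouse with high Tsc22d3, had the highest Per2 of its group. Without aliskiren mouse 1 and losartan mouse 2, r was 0.91 (exact permutation p = 0.00238), and centred within each drug it was 0.86 (adjusted p = 0.0429). Leaving out each mouse in turn gave r from 0.86 to 0.93, each time past the threshold. Tsc22d3 did not follow the Dbp-phase genes as a group. With the others of that list its r ran from -0.73 (Nr1d1) to 0.58 (Per3), was 0.21 with Dbp, and none passed. With Cry1, listed with Arntl, r was 0.77 (permutation, adjusted p = 0.103). With the Dbp-phase list mean, r was 0.30 (permutation, adjusted p = 0.964) and rho was -0.03. Usp2 passed with none of the 13 clock genes, with r from -0.75 (Arntl) to 0.85 (Per2, permutation, adjusted p = 0.0723). For Per2, rho was 0.76 (adjusted p = 0.119), and r was 0.47 without aliskiren mouse 1 and losartan mouse 2. For Hlf, r was 0.79 (adjusted p = 0.0723) and rho 0.82 (adjusted p = 0.111), and r was 0.59 without losartan mouse 3 and aliskiren mouse 1. For Dbp, r was 0.63 and rho -0.05. Nr3c1 followed Dbp at r = 0.77 (adjusted p = 0.0129) and rho = 0.82 (adjusted p = 0.111), and at r = 0.79 without aliskiren mouse 1 and losartan mouse 4. That call was lost without aliskiren mouse 2 (r = 0.77, adjusted p = 0.0530). It followed Ciart, another repressor of the clock, at r = 0.84 (adjusted p = 0.0309) and rho = 0.83 (adjusted p = 0.111), and at r = 0.85 without aliskiren mouse 1 and losartan mouse 2. The Ciart call was lost without aliskiren mouse 1 (adjusted p = 0.101), aliskiren mouse 2 (0.0530), aliskiren mouse 3 (0.103) or losartan mouse 5 (0.0642), with r between 0.80 and 0.87, and without losartan mouse 3 and aliskiren mouse 1 together (r = 0.75, adjusted p = 0.180).

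**Figure D5:**
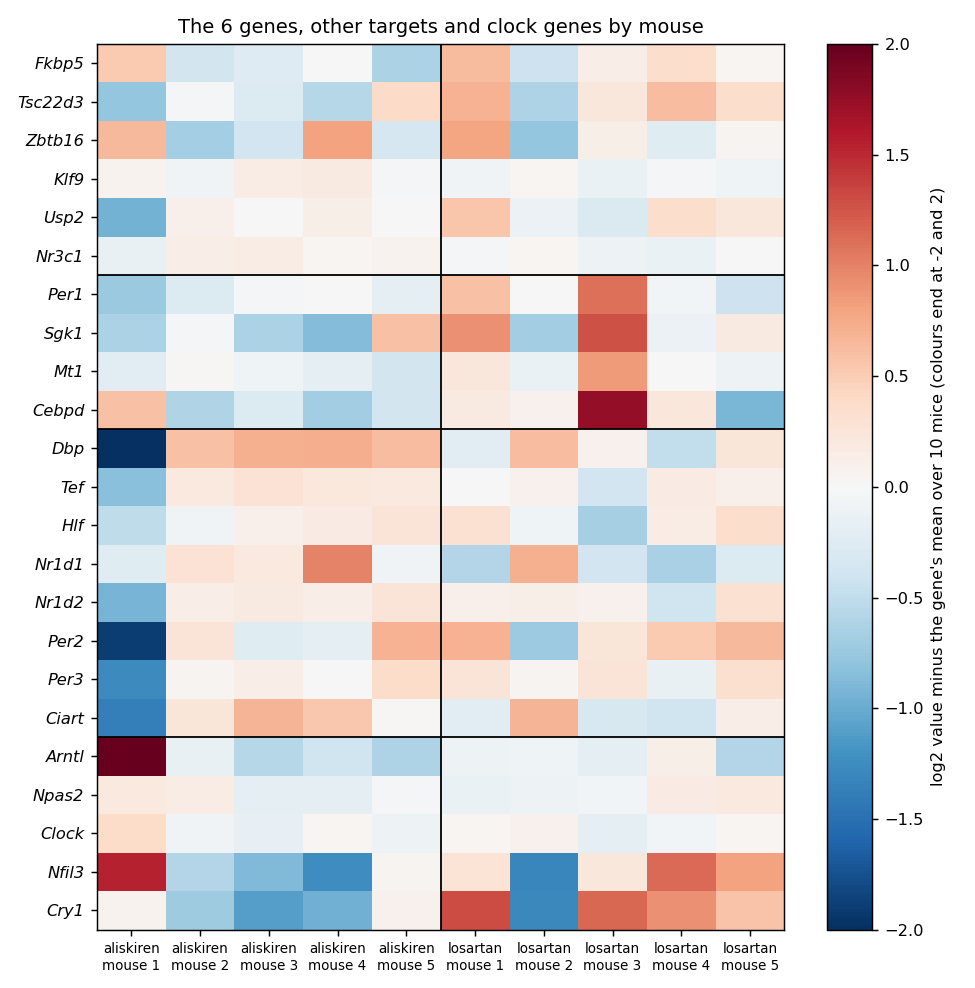
Colours give each gene's RMA log2 value minus its mean over the 10 mice, red for higher and blue for lower, for the 6 genes, 4 other glucocorticoid targets and the 13 clock genes (rows) in each mouse (columns, aliskiren left). Aliskiren mouse 1 has low Dbp, Per2 and Ciart and high Arntl, and losartan mouse 3 has high Per1, Sgk1, Mt1 and Cebpd.

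For each of the 6 genes, the tested genes with the most similar pattern over the 10 arrays were looked up by Pearson's r. They were picked as the highest of all genes, so no test belongs to them. For Fkbp5 these were the tubulin gene Tubb4b at r = 0.92, Glg1 at 0.88 and Rnf113a2 at 0.87. For Tsc22d3 they were Nus1, Maco1 and Uhrf1bp1l, at 0.91, 0.91 and 0.90. Zbtb16 was most like Fam222b, Gtf2h3 and the kinase gene Hipk1, at 0.87, 0.86 and 0.86. Klf9 was most like Cltrn, which encodes the amino acid transporter partner collectrin, Cwf19l2 and the choline dehydrogenase gene Chdh, each at 0.89. Usp2 was most like Stxbp2, the carbonic anhydrase gene Car14 and the transcription factor gene Foxf1, at 0.93, 0.93 and 0.93, where Car14 ranged from 9.44 to 11.37. Nr3c1 was most like Mfsd9, Narf and Samd10, at 0.91, 0.91 and 0.87. No gene was on the lists of 2 of the 6 genes.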

How the data were processed

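Renal cortex of 10 mice was measured on 1 Affymetrix array each. The values the authors deposited are on a log2 scale, 1 for every probe set. The submitters' processing notes name RMA and Affymetrix Expression Console 1.1. Of 45101 probe sets 64 controls were left out, and of the rest 34945 had 1 gene symbol in the platform annotation, 932 several and 9160 none. Probe sets with several symbols or none gave no gene name, and 34741 of those with 1 symbol matched RefSeq by gene identifier. A gene's brightest probe set by mean stood for it, and genes under the median probe set level of 5.53 were not tested. No build is named with the values, so coordinates belong to RefSeq's promoter table alone.

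The fit used limma 3.58.1 in R 4.3.3 (lmFit, eBayes, two-sided, drug as the only term, all 10 arrays), with Benjamini-Hochberg adjustment at 0.05. Relations over mice used 100000 permutations with 10 mice and all permutations with fewer. Fits, relations and motif search were tested on simulated or planted data. The labels tell mice of the same drug apart by a number only, and arrays have no depth: 5 per group limits the precision. The 6 genes and the lists were chosen with earlier results of these data known. Named genes are the 6 genes, a fixed set (Per1, Sgk1, Hsd11b1, Hsd11b2, Nr3c2, Fkbp4), the 3 of smallest p per pathway list, the 3 most similar per gene and the brightest gene of each clock and marker list; most of the last appear only where a mouse stood apart, and Fam107a, Adipoq, Cyp11b1, Cebpd and the single clock genes were named after their values were seen. Some genes of the chaperone and coregulator lists were not analysed here. Alternatives changed the level filter, the probe set, the scaling between arrays, the mice included, the block and the array weights. Figures were drawn with matplotlib 3.10.9.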

Additional observations from a re-analysis of the deposited data

Results flagged for a closer look

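In each group of 5, a mouse counted as apart where its gap to the nearest other mouse was more than 0.71 of the group's range. The 62 genes named here or by the rule and 5 list means gave 134 groups, of which 19 had such a mouse. Chance marks about 1 in 20 groups, but clock genes share their mice and list means share their genes, so the groups are not independent, and the set was widened after the values had been seen. Aliskiren mouse 1 was apart in 9 of the 19. Its Usp2 value was 9.81, where the other aliskiren mice had 10.74 to 10.87. For clock genes it had 7.99 against 11.49 to 11.62 for Dbp, 10.07 against 11.10 to 11.21 for Tef, 10.57 against 11.64 to 11.75 for Nr1d2, 7.03 against 8.30 to 8.67 for Per3 and 9.03 against 5.79 to 6.26 for Arntl, and a Dbp-phase list mean of 7.91 against 9.37 to 9.48. Its Car14 value was 9.44 against 10.56 to 11.01, and its Mfsd9 value 9.52 against 9.93 to 10.10. Car14 and Mfsd9 were in the set because they resembled Usp2 and Nr3c1, both lowest in that mouse. Low values there follow in part from that choice. Aliskiren mouse 3 had 7.96 for the cochaperone gene Stip1, against 8.18 to 8.22. Losartan mouse 3 had 11.67 for Hsd11b1 against 9.37 to 9.96, 9.36 for Fkbp4 against 9.53 to 9.56, 13.79 for the fat gene Fabp4 against 9.46 to 10.15, 12.96 for Adipoq against 3.43 to 3.82, and a perirenal fat mean of 10.55 against 4.82 to 4.86. Losartan mouse 2 had 6.996 for Nr1d1 against 5.64 to 6.00, 3.89 for Cry1 against 5.75 to 6.48, and an adrenal list mean of 4.63 against 4.74 to 4.78. Losartan mouse 1 had 7.52 for Gtf2h3 against 7.30 to 7.36. Of the 6 glucocorticoid genes, Usp2 was the only one with a mouse apart in this way.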

How the results depend on the processing

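The 6 differences were recomputed under 138 combinations of gene and alternative, and 0 passed the threshold (lowest limma adjusted p = 0.711). In 10 the sign turned. For Zbtb16 the difference was -0.0029 with the mean of its probe sets, -0.13 with its dimmest probe set, -0.16 with array weights and -0.11 without losartan mouse 3 and aliskiren mouse 1, and -0.18 to 0.22 with 1 mouse left out, turning without aliskiren mouse 1 or 4 or losartan mouse 2 or 4. The fourth brightest probe set gave -0.0092 for Nr3c1 and 0.11 for Tsc22d3, both below the level filter. Mouse numbers share no stated origin, and deviations of same-numbered mice correlated between -0.23 and 0.42; with the number as a replicate block, which cannot change a difference in this balanced design, 0 genes were called, as without it (lowest adjusted p = 0.974). The unadjusted limma p under the block was 0.0318 for Fkbp5 (0.233 without it) and 0.137 for Tsc22d3 (0.0928 without it). The count of called genes was 0 under every alternative run. The 15 pairs gave 0 passing relations with all mice, 0 to 2 with 1 mouse left out and 1 without losartan mouse 3 and aliskiren mouse 1. The 18 relations with lists gave 1 with all mice, 0 to 2 with 1 mouse left out, 0 without these 2 mice and 0 with the mean of all probe sets. The relation of Nr3c1 with the clock mean did not pass without those 2 mice (r = 0.82, adjusted p = 0.233). The 78 single clock gene relations, added after the data were seen, gave 3 with all mice and 1 to 6 with 1 mouse left out, 4 with array medians set equal, 4 with values centred within each drug, 7 with quantile normalization and 7 without losartan mouse 3 and aliskiren mouse 1. The cause of these changes was not tested.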

Other observations

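The order of the mice by Fkbp5 and by Tsc22d3 ran in opposite ways in the 2 groups, which was noticed after the values were seen and was not tested. From highest to lowest Fkbp5 the aliskiren mice were 1, 4, 3, 2 and 5, and by Tsc22d3 they were 5, 2, 3, 4 and 1, the exact reverse. By Fkbp5 the losartan mice were 1, 4, 3, 5 and 2, and by Tsc22d3 they were 1, 4, 5, 3 and 2, nearly the same order. Such a change of sign was not particular to this pair. Tsc22d3 with Zbtb16 had r = -0.77 with aliskiren and 0.79 with losartan, and Fkbp5 with Usp2 had -0.82 and 0.72. Other pairs kept their sign, such as Fkbp5 with Zbtb16 at 0.77 and 0.86.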
